A study of Arabidopsis thaliana with 24 samples.

Results

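The 60 genes described here encode cytosolic proteins of the large (60S) ribosomal subunit of Arabidopsis thaliana, from RPL3 to RPL28 and without the acidic stalk proteins. They were chosen by function through their gene identifiers and not by measured values, and they are 60 of the 38088 genes in the deposited table. All 60 reached 1 FPKM (fragments scaled by transcript length and by the library's total) in at least 3 libraries, the filter that left 20964 genes for testing. They fall into 25 families of paralogues, 16 with 2 genes, 8 with 3 and 1 with 4.

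The 60S subunit joins amino acids at its peptidyl transferase centre and releases the growing chain through an exit tunnel lined by RNA and proteins. Its proteins are needed in near-equal amounts, and in Arabidopsis each is encoded by a small family of closely related nuclear genes. Their messengers are short and abundant, and in plants their translation depends on signalling by the TOR kinase. DCP5 is a cytoplasmic protein of the decapping machinery, which removes the cap from messengers, and it is known in Arabidopsis for processing bodies and for repressing translation.

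Whole seedlings, 5 days old, were kept for 30 min in liquid medium and then spent 0 min (T0) or 15 min (T15) in 150 mM NaCl. From each lysate, polysomal RNA (the pooled fractions that held polysomes in a sucrose gradient of 10 to 50%) and total RNA were sequenced. The 8 groups of 3 libraries were dcp5-1 with NaCl (T15, polysomal and total RNA), dcp5-1 at T0 (polysomal and total), Col-0 with NaCl (T15, polysomal and total) and Col-0 at T0 (polysomal and total). Col-0 is the wild type and dcp5-1 a mutant of DCP5 whose kind of lesion the labels do not give. No group spent 15 min without NaCl, so a change called an NaCl change below cannot be told apart from transfer, handling or elapsed time. For dcp5-1 the ecotype label carries 12 different numbers, 1 per sample, as a spreadsheet fill would. The labels do not say that samples of a group came from separate cultures, so the p-values measure a spread that may be technical.

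Implied depth was 14530000 to 19030000 fragments per library, with 19026 to 19579 genes at 1 FPKM or more. Columns marked IP were read as polysomal RNA, and if that reading is wrong the fractions swap names and every value of polysome association changes sign. DCP5 itself (AT1G26110) averaged 16.8 and 13.0 FPKM in dcp5-1 total RNA at T15 and T0, against 77.0 and 50.7 FPKM in Col-0. Spread between replicates was largest in Col-0 total RNA at T0, with a median SD of 0.11 on the log2 scale against 0.06 to 0.08 in the other 7 groups. In that group the summed FPKM of the 60 genes was 22400, 29244 and 25483 in replicates 1 to 3, so that replicate 2 stood highest. Most members had sequence of their own: 38 shared no 50-base stretch with another annotated gene and 49 shared under 5%. RPL9B (AT1G33120) and RPL9C (AT1G33140) shared 53.4% and 54.2% of theirs, and RPL13aC, RPL6A, RPL6B and RPL8C between 21.4% and 51.1%, so the values of these 6 genes are uncertain. Of the 60, 17 overlap another gene, 16 of them on the opposite strand, among them RPL26B, RPL11C, RPL18C, RPL15A, RPL19C, RPL24A and RPL3B. Whether the counting used strand is not stated, so reads cannot be told apart where transcripts overlap. Of those named, RPL18C shared 16.0% and RPL11C 5.1% of their 50-base stretches with another gene on either strand, and the others none. Only the longest annotated transcript of each gene was compared.

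Levels differed widely between genes, also within families. On the FPKM scale, which is per transcript length, the mean over all 24 libraries ran from 19.1 for RPL10B (AT1G26910) to 1035 for RPL19A (AT1G02780), with a median of 276, and 52 genes lay over 100 FPKM. RPL19 is known from ribosome structures to reach across to the small subunit, and RPL10 to sit near the peptidyl transferase centre. RPL19A had 973, 944 and 960 FPKM in dcp5-1 total RNA at T15 and 1305, 1358 and 1315 FPKM at T0, against 788, 801 and 783 FPKM in Col-0 at T15 and 1010, 1264 and 1164 FPKM at T0. RPL10B stayed between 11.3 and 25.3 FPKM in every library. RPL18aB (AT2G34480) followed RPL19A closely at 1014 FPKM. Within families, the highest copy exceeded the lowest 1.03-fold in RPL4 and 37.2-fold in RPL10, where RPL10A (AT1G14320, also called SAC52) averaged 712 FPKM. The median of this ratio over the 25 families was 2.74. The 35 genes with 1 annotated transcript were backed by 177 to 21460 implied fragments per library.

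NaCl lowered nearly all of these messengers in Col-0 total RNA. Of the 60 genes, 54 fell and 1 rose, with a median log2 change of -1.03, where 32.4% of the 20964 genes tested fell and 33.2% rose and the median over all of them was 0.01. The base for shares of nuclear FPKM, here and below, was 26722 nuclear protein-coding genes with transcripts of at least 300 nt. Together the 60 genes made up 1.51, 1.44 and 1.47% of the summed FPKM of these nuclear genes at T15, against 2.10, 2.29 and 2.23% at T0. The shares did not overlap between the times. Since whole seedlings were lysed, fewer cells of a type and less RNA per cell cannot be told apart. The call rests on limma with Benjamini-Hochberg adjustment over all genes tested, at an adjusted p below 0.05.

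**Figure D1:**
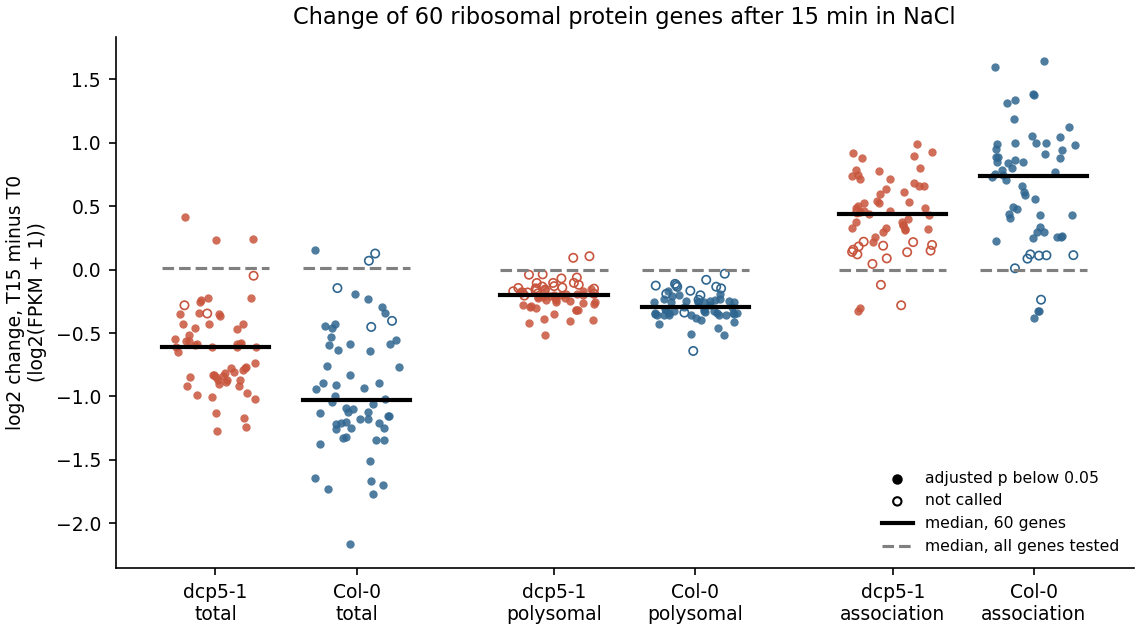
Each point is 1 of the 60 genes, with its log2 change (T15 minus T0, log2(FPKM + 1)) on the vertical axis for total RNA, for polysomal RNA and for association (polysomal minus total), each in dcp5-1 and Col-0. Filled points passed an adjusted p below 0.05, black bars are medians of the 60 genes (-0.61 in dcp5-1 and -1.03 in Col-0 total RNA) and dashed lines medians of all genes tested.

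The largest fall was that of RPL26B (AT5G67510), whose protein lines the tunnel exit in ribosome structures. RPL26B lies on chromosome 5 at 26937621 to 26938498, minus strand, in the TAIR10.1 annotation. It had 71.6, 66.7 and 61.1 FPKM in Col-0 total RNA at T15, against 261, 367 and 284 FPKM at T0. Every T15 library lay below every T0 library, and the log2 change was -2.16 ± 0.09 (SE, adjusted p = 5.2e-15). Its paralogue RPL26A (AT3G49910) fell less, by 1.09 on the log2 scale, and the gap of 1.08 between them was the widest of any family.

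RPL12C (AT5G60670), whose protein forms the base of the stalk, and RPL11C (AT4G18730), whose protein binds the 5S RNA of the central protuberance, followed. RPL12C had 54.0, 49.2 and 53.9 FPKM at T15, against 153, 213 and 180 FPKM at T0, a log2 change of -1.77 ± 0.09 (adjusted p = 1.6e-13). RPL11C had 216, 198 and 179 FPKM at T15, against 564, 805 and 630 FPKM at T0, a change of -1.73 ± 0.10 (adjusted p = 9.9e-13). For both, the times did not overlap in any library. RPL18C (AT5G27850) had 229, 224 and 224 FPKM at T15, against 604, 875 and 751 FPKM at T0 (-1.70 ± 0.09, adjusted p = 1.7e-13). RPL28A (AT2G19730), at 383, 362 and 383 FPKM at T15 against 1066, 1407 and 1144 FPKM at T0, showed a change of -1.67 ± 0.08 (adjusted p = 2.0e-13).

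By role, the proteins at and near the peptidyl transferase centre were mixed. RPL10A fell by 1.16 on the log2 scale and RPL8A (AT2G18020) by 0.94, whereas the RPL3 and RPL4 genes moved little. RPL3A (AT1G43170) had 206, 197 and 192 FPKM at T15, against 191, 254 and 217 FPKM at T0, and the times overlapped. Its change of -0.15 did not pass, nor did the values of 0.07 for RPL4A (AT3G09630) and 0.13 for RPL4D (AT5G02870), 2 genes also known for vacuolar trafficking. RPL3B (AT1G61580), the low-level copy of RPL3, had 11.5, 12.04 and 11.4 FPKM at T15, against 9.72, 11.6 and 9.77 FPKM at T0, and was the 1 gene called higher (0.16 ± 0.06, adjusted p = 0.036). Its call was lost without replicate 1 (0.12) or 3 (0.12) of Col-0 total RNA at T0 and without replicate 1 (0.17) or 2 (0.14) at T15. At the tunnel exit, RPL17A (AT1G27400), RPL17B (AT1G67430) and both RPL23a genes, which in other organisms dock the signal recognition particle, fell by 0.89 to 1.25. The RPL10a genes of the mobile L1 stalk fell by 1.02 to 1.21, and the bridge protein genes RPL24A (AT2G36620) and RPL24B (AT3G53020, known as STV1 for reinitiation after upstream reading frames) by 1.06 and 0.44.

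In 22 of the 25 families all copies fell, RPL3, RPL4 and RPL9 being the exceptions. In RPL9, RPL9D fell (-1.34), while RPL9B and RPL9C, whose values are uncertain, were at -0.45 and -0.40 without a call. Copies of a family differed in their log2 change by 0.005 to 1.08, with a median gap of 0.30. An alternative, called scaling to nuclear genes alone below, left out organelle-encoded genes. Each library was divided by its summed FPKM over nuclear genes of at least 300 nt. That sum includes the 60 genes themselves, and what moved the medians was not tested. With this scaling the median over all genes tested moved by 0.36, 47 of the 60 genes fell and 8 rose. The members' median lay 0.95 below that of all genes, against 1.04 in the original scale. RPL5A, RPL6B, RPL6C, RPL7D, RPL19C and RPL24B, which fell by 0.19 to 0.44, had positive values in that scale. With length and GC trends removed, RPL19C and RPL24B were at 0.15 each and past the threshold as higher (adjusted p = 0.039 and 0.0025). Root markers moved with this comparison: 4 of 5 fell and none rose, with sums of 1571 to 1667 FPKM at T15 against 1710 to 2008 FPKM at T0. Of 5 leaf markers tested 2 rose and 2 fell (RBCS1A, the sixth, is listed at 0 in every library), and of 5 markers of dividing cells 2 rose, with sums of 31.9 to 33.8 FPKM at T15 and 27.1 to 29.8 FPKM at T0. The part of the markers in the result was not tested.

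Since the genes moved together, the 250 bases upstream of each annotated start were read from the TAIR10.1 sequence (RefSeq) for 2 motifs known from plant ribosomal protein promoters. The telo-box was searched as AAACCCTA, and site II as TGGGCC or TGGGCT, each on both strands. Windows are shown for the 2 genes that fell most in Col-0 total RNA and for 2 long genes, RPL3A and RPL4A, that did not pass, so that the letters of both kinds can be compared. They run 5′ to 3′ on the gene's strand with motif letters in capitals, and a site II on the opposite strand reads GGCCCA or AGCCCA.
RPL26B: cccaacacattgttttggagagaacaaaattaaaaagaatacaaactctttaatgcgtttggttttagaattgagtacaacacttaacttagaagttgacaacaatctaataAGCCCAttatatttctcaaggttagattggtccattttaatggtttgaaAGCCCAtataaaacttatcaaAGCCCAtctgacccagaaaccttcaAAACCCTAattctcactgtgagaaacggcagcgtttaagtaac
RPL12C: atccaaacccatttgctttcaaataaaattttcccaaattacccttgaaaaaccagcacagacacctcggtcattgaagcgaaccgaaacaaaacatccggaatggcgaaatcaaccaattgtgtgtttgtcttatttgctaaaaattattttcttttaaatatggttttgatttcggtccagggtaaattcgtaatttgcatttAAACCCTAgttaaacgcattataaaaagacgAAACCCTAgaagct
RPL3A: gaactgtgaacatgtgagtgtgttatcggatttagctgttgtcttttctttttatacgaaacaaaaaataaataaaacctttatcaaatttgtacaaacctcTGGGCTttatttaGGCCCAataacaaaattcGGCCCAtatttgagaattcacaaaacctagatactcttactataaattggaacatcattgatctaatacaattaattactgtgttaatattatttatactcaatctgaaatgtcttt
RPL4A: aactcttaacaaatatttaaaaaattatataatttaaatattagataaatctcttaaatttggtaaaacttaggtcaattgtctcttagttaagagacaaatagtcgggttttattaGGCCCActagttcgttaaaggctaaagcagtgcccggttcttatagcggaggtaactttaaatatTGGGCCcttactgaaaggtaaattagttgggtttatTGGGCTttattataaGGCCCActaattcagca
These windows are chr5:26938499-26938748 (minus), chr5:24381600-24381849 (minus), chr1:16266303-16266552 (plus) and chr3:2953443-2953692 (plus), in the order shown.

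RPL26B holds 1 telo-box, starting 43 bases upstream, and 3 site II elements. RPL12C holds 2 telo-boxes, starting 45 and 14 bases upstream, and no site II. RPL3A and RPL4A hold 3 and 4 site II elements and no telo-box. Over all members, 15 of 60 windows (25.0%) had a telo-box against 4.49% of 27443 nuclear protein-coding genes, 44 (73.3%) had a site II against 19.2%, and 11 (18.3%) had both against 1.36%. The 15 genes with a telo-box had a median change of -1.20 in Col-0 total RNA and the 45 without it -0.94, while the 44 with a site II had -1.04 and the 16 without it -1.03. Letters in a window are a description and not a binding site, and 31 of the 60 windows overlap no other gene.

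**Figure D2:**
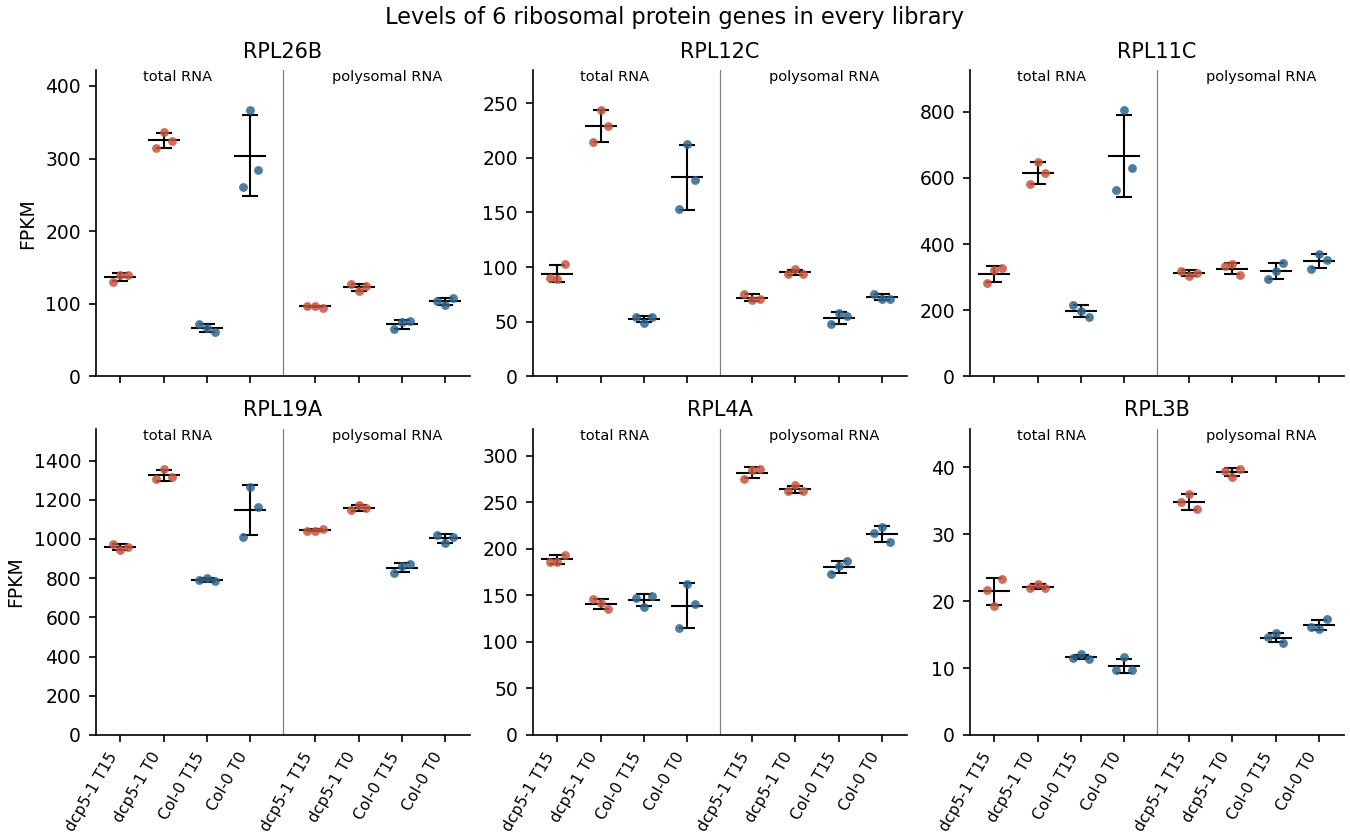
FPKM in each library (points), with the mean and SD of 3 replicates (bars), for 6 genes in the 8 groups, total RNA left and polysomal RNA right of the line. RPL26B, RPL12C and RPL11C separate T15 from T0 in total RNA far more than in polysomal RNA, RPL19A is the most abundant member, RPL4A is higher with NaCl in dcp5-1 total RNA, and RPL3B is higher in dcp5-1 throughout.

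The change in total RNA ran with coding length. Across the 60 genes Spearman's rho between coding length and the change in Col-0 total RNA was 0.62, and in dcp5-1 total RNA 0.59; genes of 1 library share its depth and base composition, so these are descriptions. The 6 genes with coding sequences of 900 nt or more (RPL3A, RPL3B, RPL4A, RPL4D, RPL5A and RPL5B) had a median of -0.04 in Col-0, the 27 from 600 nt up to 900 nt had -0.90, and the 27 shorter ones -1.18. In dcp5-1 the same classes had medians of 0.09, -0.59 and -0.83. RPL5A (AT3G25520) and RPL5B (AT5G39740), the shortest of the long class and carriers of 5S RNA, fell by 0.34 and 0.63 in Col-0. A relation with length was not particular to these genes: over 19445 nuclear genes rho with transcript length was 0.59 in Col-0 and 0.48 in dcp5-1. With transcript length the 60 genes had 0.51 in Col-0 and 0.59 in dcp5-1. With the trends on length and GC content removed, 51 of the 60 genes still fell in Col-0 total RNA and 3 rose, with a median of -0.58.

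**Figure D3:**
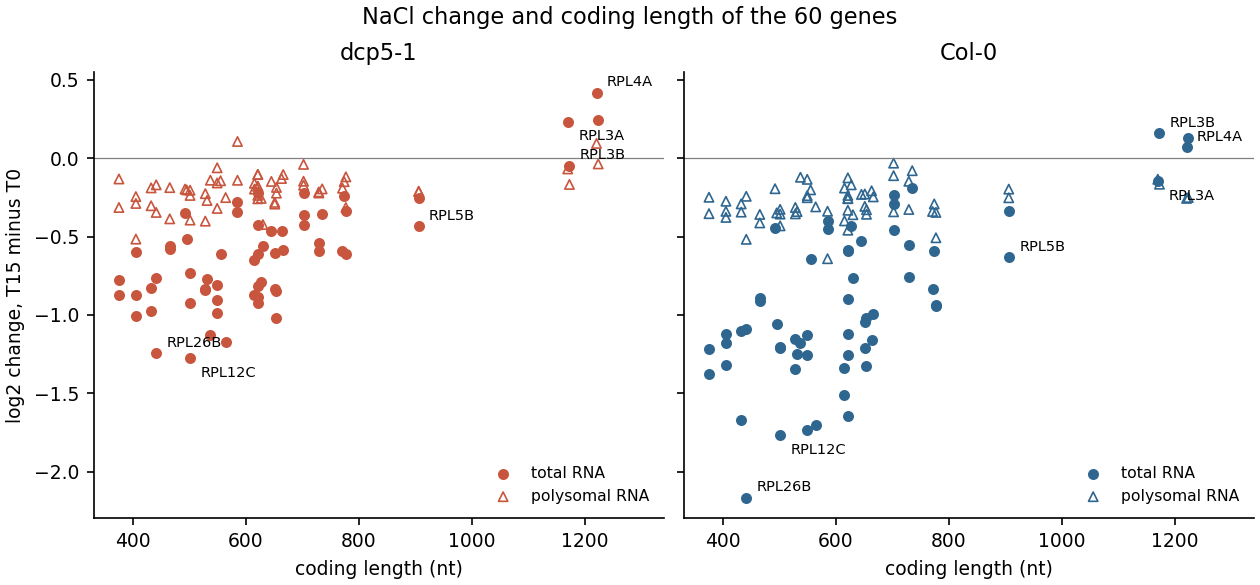
Log2 change after NaCl against the coding length of each of the 60 genes, in total RNA (filled circles) and polysomal RNA (open triangles), for dcp5-1 left and Col-0 right. Short genes such as RPL26B and RPL12C lie lowest in total RNA, and the genes of RPL3 and RPL4 lie highest in total RNA, between -0.05 (RPL3B) and 0.42 (RPL4A) in dcp5-1 and between -0.15 and 0.16 in Col-0.

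In polysomal RNA of Col-0 the genes fell far less in size. NaCl lowered 46 of 60 and raised none, with a median of -0.29, where 17.1% of genes tested fell and 15.6% rose. Among called genes RPL26B again led, with 64.9, 75.4 and 75.8 FPKM at T15 against 104, 98.7 and 108 FPKM at T0 (-0.52 ± 0.09, adjusted p = 7.8e-05). RPL8C (AT4G36130), which overlaps an antisense gene, had 69.9, 71.7 and 69.5 FPKM at T15 against 103, 99.1 and 99.1 FPKM at T0 (-0.51 ± 0.06, adjusted p = 2.0e-06). RPL13aA (AT3G07110), at -0.46, RPL12C, at -0.43, and RPL23aB (AT3G55280), at -0.41, were the next lowest called genes. The lowest value of any member, -0.64, was not called. RPL11C, among the lowest in total RNA, had 293, 318 and 342 FPKM at T15 against 325, 369 and 353 FPKM at T0, with overlapping times. Summed, the genes held 1.64, 1.65 and 1.66% of nuclear FPKM in the polysomal libraries at T15, against 1.95, 1.94 and 1.91% at T0. All 5 root markers fell in this comparison too, with sums of 1956 to 2103 FPKM at T15 against 2534 to 2598 FPKM at T0, and their part was not tested.

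Polysome association is the log2 change in the polysomal fraction less the one in total RNA. It uses the same libraries as the 2 comparisons above and is no further evidence for them. Both fractions came from each lysate, but the fit took all libraries as independent. The SEs and calls of association, and of polysomal against total RNA, thus leave that pairing out. Association rose for 50 of the 60 genes in Col-0 and fell for 3, with a median of 0.74, where 22.8% of genes tested rose and 21.5% fell. The highest values were 1.65 ± 0.12 for RPL26B (adjusted p = 8.5e-10), 1.60 for RPL11C, 1.39 for RPL18C, 1.38 for RPL28A and 1.33 for RPL12C. Association fell for RPL4D (-0.38 ± 0.12, adjusted p = 0.011), RPL4A (-0.33 ± 0.11, adjusted p = 0.017) and RPL3B (-0.32 ± 0.09, adjusted p = 0.0059). Scaled to nuclear genes alone, the median over all genes moved by -0.32, 36 members rose and 10 fell, and the members' median lay 0.67 above that of all genes. Association also ran with length, and not only in these genes. Spearman's rho was -0.59 with coding length over the 60 genes and -0.59 with transcript length over 19445 nuclear genes. With length and GC trends removed, 3 of the 53 called genes turned negative, RPL24B (-0.22), RPL19C (-0.18) and RPL23aB (-0.06).

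The same libraries show where each messenger stood within a group. At T15 in Col-0, polysomal RNA held 41 of the genes at a higher and 7 at a lower level than total RNA, with a median of 0.43 (31.6% of genes tested were higher and 29.8% lower). At T0 the counts were 15 higher and 37 lower, with a median of -0.32 (35.3% higher and 36.0% lower). RPL3A stood high at both times: it had 483, 513 and 524 FPKM in polysomal against 206, 197 and 192 FPKM in total RNA at T15 (log2 1.35 ± 0.07, adjusted p = 1.0e-12), and 549, 574 and 546 FPKM in polysomal against 191, 254 and 217 FPKM in total RNA at T0 (1.34 ± 0.07, adjusted p = 4.4e-13). RPL18B (AT3G05590) was the lowest at T15, at -0.53 ± 0.07 (adjusted p = 2.5e-06) against -1.33 at T0, and RPL26B the lowest at T0, at -1.53 ± 0.09 (adjusted p = 6.2e-13). The highest at T15 was RPL18aC (AT3G14600), with 295, 342 and 334 FPKM in polysomal against 118, 115 and 118 FPKM in total RNA (1.46 ± 0.05, adjusted p = 1.5e-15). RPL7D (AT3G13580) also stood high, at 1.10 at T15 and 0.99 at T0, and RPL14A (AT2G20450) low, at -0.46 and -1.25. On the scale of nuclear genes alone the counts were 32 higher and 13 lower at T15 (members' median 0.40 above that of all genes, which moved by -0.17) and 19 higher and 31 lower at T0 (0.24 below, with a move of 0.14). With length and GC trends removed they were 26 higher and 24 lower at T0, with a median of -0.02.

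**Figure D4:**
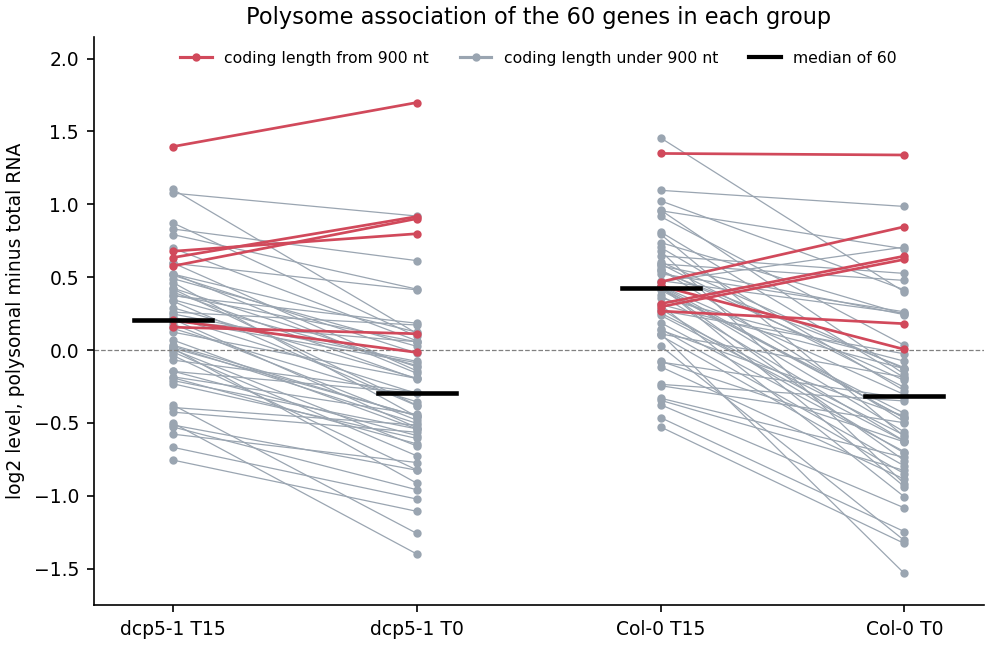
Log2 level in polysomal minus total RNA for each of the 60 genes (lines) in dcp5-1 at T15 and T0 (left) and Col-0 at T15 and T0 (right), with the median as a black bar. Medians were 0.21 at T15 and -0.29 at T0 in dcp5-1, and 0.43 at T15 and -0.32 at T0 in Col-0. Of the 6 genes of 900 nt or more (red), none of those of RPL3 and RPL4 was called as rising from T0 to T15 in this measure. RPL5B rose by 0.22 in dcp5-1 and 0.43 in Col-0. RPL3A was called higher in polysomal than in total RNA at both times in both genotypes.

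In dcp5-1 total RNA, NaCl lowered 54 of the 60 genes and raised 3, with a median of -0.61 (26.8% of genes tested fell and 29.0% rose). RPL12C had 90.1, 89.0 and 103 FPKM at T15, against 214, 244 and 229 FPKM at T0 (-1.28 ± 0.09, adjusted p = 5.6e-11). RPL26B had 131, 139 and 140 FPKM at T15, against 315, 336 and 324 FPKM at T0 (-1.24 ± 0.09, adjusted p = 6.3e-11). For both, no T15 library reached a T0 library. RPL18C at -1.17, RPL18aC at -1.13 and RPL10aC (AT5G22440) at -1.02 came next. The 3 genes that rose were long: RPL4A had 186, 186 and 194 FPKM at T15, against 146, 141 and 135 FPKM at T0 (0.42 ± 0.08, adjusted p = 7.2e-05). RPL4D was at 0.24 ± 0.08 (adjusted p = 0.016), and at 0.21 without its call when replicate 3 of dcp5-1 total RNA at T0 was left out. RPL3A was at 0.23 ± 0.07 (adjusted p = 0.011), and lost its call without replicate 1 (0.20) or 3 (0.18) of dcp5-1 total RNA at T15. All copies fell in 22 of the 25 families. Scaled to nuclear genes alone, the members' median lay 0.59 below that of all genes, which moved by 0.13. Of the leaf markers 4 of 5 rose here and none fell, with sums of 17310 to 18714 FPKM at T15 against 11985 to 12416 FPKM at T0. Of the root markers 1 of 5 rose and 2 fell, with sums of 3316 to 3368 FPKM at T15 against 2200 to 2260 FPKM at T0. Of the markers of dividing cells 2 of 5 rose and none fell. The part of these markers was not tested.

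In dcp5-1 polysomal RNA, 36 genes fell and none rose, with a median of -0.20 (15.5% of genes tested fell and 17.2% rose). RPL14A fell most, with 102, 96.8 and 89.6 FPKM at T15 against 143, 137 and 133 FPKM at T0 (-0.52 ± 0.05, adjusted p = 1.1e-07). RPL19B (AT3G16780), at -0.42, RPL9D (AT4G10450), at -0.40, RPL12C, at -0.40, and RPL23aB, at -0.39, followed. Association in dcp5-1, from the same libraries, rose for 43 genes and fell for 2, with a median of 0.44 (12.3% rose and 14.0% fell). RPL18aC led at 0.99 ± 0.07 (adjusted p = 2.6e-09), then RPL11C at 0.93, RPL18C at 0.92, RPL26B at 0.90 and RPL12C at 0.88. RPL4A fell by 0.32 and RPL3A by 0.30, and both calls were lost when some single libraries were left out, 4 of 12 for RPL4A and 8 of 12 for RPL3A. Scaled to nuclear genes alone, the members' median lay 0.41 above that of all genes, which moved by -0.18. Here too association ran with length, with a rho of -0.55 with coding length over the 60 genes. Over 19445 nuclear genes it was -0.42 with transcript length. With length and GC trends removed, no called gene changed direction.

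Within dcp5-1, polysomal RNA held 33 genes at a higher and 14 at a lower level than total RNA at T15, with a median of 0.21 (33.6% of genes tested higher and 32.8% lower). At T0 it held 9 higher and 34 lower, with a median of -0.29 (34.9% higher and 36.3% lower). RPL3A was the highest at both times, at 1.40 ± 0.07 at T15 (adjusted p = 3.4e-13) and 1.70 ± 0.07 at T0 (adjusted p = 7.0e-15). At T0 it had 600, 630 and 621 FPKM in polysomal RNA, against 195, 188 and 184 FPKM in total RNA, with no overlap between the fractions. RPL18B was the lowest at T15, at -0.75, and RPL26B again the lowest at T0, at -1.40. At T0, the counts scaled to nuclear genes alone were 17 higher and 31 lower, and with length and GC trends removed 23 higher and 24 lower.

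The genotypes were compared first without NaCl. In total RNA at T0, 22 genes were higher in dcp5-1 and 4 lower, with a median of 0.13, where 19.5% of genes tested were higher and 28.6% lower and their median was -0.05. RPL3B stood apart: it had 21.9, 22.5 and 22.0 FPKM in dcp5-1, against 9.72, 11.6 and 9.77 FPKM in Col-0 (1.03 ± 0.06, adjusted p = 2.2e-11). The genotypes did not overlap. RPL19C (AT4G02230) had 204, 201 and 213 FPKM in dcp5-1, against 131, 119 and 117 FPKM in Col-0 (0.75 ± 0.05, adjusted p = 1.1e-10), again with no overlap. RPL18aC and RPL7D were higher by 0.47 each and RPL23aB by 0.44. RPL10A, known for antiviral signalling through the NIK1 receptor, had 872, 891 and 922 FPKM in dcp5-1, against 1030, 1436 and 1148 FPKM in Col-0 (-0.41 ± 0.08, adjusted p = 1.6e-04).

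The other genes lower in dcp5-1, RPL18B (-0.25), RPL12B (AT3G53430, -0.23) and RPL3A (-0.21), lost their calls without replicate 2 of Col-0 total RNA at T0, when their values were -0.14, -0.11 and -0.11. RPL12B also lost its call without replicate 1 (-0.20) or 3 (-0.23) of dcp5-1 or replicate 3 of Col-0 (-0.22), and RPL3A without replicate 2 (-0.21) or 3 (-0.19) of dcp5-1, all total RNA at T0. The members' median lay between 0.01 and 0.21 over the fits that each left out 1 library. Without replicate 1 of Col-0 total RNA at T0, 13 genes were lower, and without replicate 2 of the same group there was 1. Without replicate 3 of dcp5-1 total RNA at T0 there were 2. Scaling to nuclear genes alone moved the median over all genes by 0.18. On that scale 48 members were higher and 1 lower, and the members' median lay 0.21 above that of all genes, against 0.17 in the original scale. RPL3A turned to 0.01 in that scale. Leaf markers moved with genotype: all 5 tested were lower in dcp5-1 at T0, with sums of 11985 to 12416 FPKM in dcp5-1 against 19295 to 23190 FPKM in Col-0. At T15 4 of 5 were lower, with sums of 17310 to 18714 FPKM in dcp5-1 against 21371 to 21822 FPKM in Col-0. Root marker sums were 2200 to 2260 FPKM in dcp5-1 against 1710 to 2008 FPKM in Col-0 at T0, and 3316 to 3368 FPKM against 1571 to 1667 FPKM at T15. Such sums do not show how many root markers moved. In polysomal RNA most root markers were not higher in dcp5-1 (counts below). The part of leaf or root tissue in the genotype differences was not tested.

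In polysomal RNA at T0, 26 genes were higher in dcp5-1 and none lower, with a median of 0.15 (21.9% of genes tested higher and 24% lower). RPL3B led with 39.5, 38.6 and 39.8 FPKM in dcp5-1, against 16.2, 15.8 and 17.3 FPKM in Col-0 (1.21 ± 0.06, adjusted p = 2.1e-12). RPL14A was higher by 0.57, RPL9D by 0.51, RPL23aB by 0.50 and RPL19C by 0.47. Scaled to nuclear genes alone 54 were higher, as the median over all genes moved by 0.14. Association at T0 differed for few genes, 2 higher and 2 lower (7.73% of genes tested higher and 3.14% lower). These were RPL3A at 0.36, RPL24A at 0.26, and RPL18aC and RPL19C at -0.28 each. With 1 library left out at a time, the call of RPL3A was lost in 7 of 12 fits (values of 0.25 to 0.46), that of RPL24A in 10 of 12 (0.19 to 0.33), that of RPL18aC in 1 of 12 and that of RPL19C in none of the 12. Without replicate 1 of Col-0 total RNA at T0 the count was 16, and without replicate 1 or 3 of Col-0 polysomal RNA, or replicate 2 or 3 of dcp5-1 polysomal or total RNA at T0, it was 2. On the scale of nuclear genes alone 3 were higher and 5 lower, the same numbers as with length and GC trends removed.

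After NaCl the genotypes lay further apart in total RNA, by counts and median on the original scale. At T15, 55 of the 60 genes were higher in dcp5-1 and none lower, with a median of 0.41 (24% of genes tested higher and 26.1% lower). RPL26B had 131, 139 and 140 FPKM in dcp5-1, against 71.6, 66.7 and 61.1 FPKM in Col-0 (1.03 ± 0.09, adjusted p = 3.1e-09). RPL9D, from a family known for leaf polarity, had 76.8, 74.5 and 73.0 FPKM in dcp5-1, against 43.4, 42.2 and 34.6 FPKM in Col-0 (0.89 ± 0.08, adjusted p = 1.6e-08). For both genes the lowest dcp5-1 library lay above the highest Col-0 library. RPL12C and RPL3B were each higher by 0.83 and RPL23aB by 0.76. Together the 60 genes held 1.86, 1.85 and 1.89% of nuclear FPKM in dcp5-1 at T15, against 1.51, 1.44 and 1.47% in Col-0. At T0 they held 2.61, 2.67 and 2.60% in dcp5-1, against 2.10, 2.29 and 2.23% in Col-0. By these shares the genotypes did not overlap at either time.

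In polysomal RNA at T15, 39 genes were higher in dcp5-1 and none lower, with a median of 0.21 (22.3% of genes tested higher and 22.4% lower). RPL3B had 34.8, 36.0 and 33.7 FPKM in dcp5-1, against 14.6, 15.2 and 13.8 FPKM in Col-0 (1.21 ± 0.06, adjusted p = 2.0e-12). RPL4A had 275, 284 and 286 FPKM in dcp5-1, against 173, 181 and 187 FPKM in Col-0 (0.64 ± 0.08, adjusted p = 5.5e-07), with no overlap. RPL23aB was higher by 0.52, RPL6A (AT1G18540, uncertain for its overlapping antisense gene) by 0.50 and RPL4D by 0.48. RPL3B was thus higher in dcp5-1 in both fractions at both times, by 0.83 to 1.21 on the log2 scale. Tissue markers moved in the polysomal libraries too. Leaf marker sums at T15 were 30994 to 31673 FPKM in dcp5-1 against 40321 to 44228 FPKM in Col-0, with 4 of 5 lower, and at T0 24020 to 25239 FPKM against 38504 to 40799 FPKM, with 5 of 5 lower. Root marker sums at T15 were 3867 to 3960 FPKM in dcp5-1 against 1956 to 2103 FPKM in Col-0, with 1 of 5 higher and none lower, and at T0 3832 to 3977 FPKM against 2534 to 2598 FPKM, with 1 of 5 higher and 3 lower. Their part was not tested.

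Association at T15 was lower in dcp5-1 for 16 genes and higher for 1, with a median of -0.19 (5.31% of genes tested lower and 7.48% higher). RPL11C had -0.67 ± 0.14 (adjusted p = 0.0026), RPL26B -0.61 ± 0.12 (adjusted p = 0.0021) and RPL28A -0.48, followed by RPL9D and RPL13aA at -0.43 each; RPL3B was higher by 0.38. The call of RPL13aA was lost in 6 of 12 fits that each left out 1 library, and that of RPL9D in 2 of 12. The number lower was 8 without replicate 3 of Col-0 polysomal RNA at T15, replicate 2 of Col-0 total RNA at T15 or replicate 3 of dcp5-1 total RNA at T15, and 7 without replicate 3 of Col-0 total RNA at T15. On the scale of nuclear genes alone 12 were lower and 5 higher, and the members' median lay 0.18 below that of all genes, which moved by 0.11.

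Whether the NaCl response itself differed between genotypes was tested as the difference of the changes, which shares its libraries with all comparisons above. In total RNA the difference (dcp5-1 minus Col-0) was positive for 38 genes and negative for 1, with a median of 0.32 (16.9% of genes tested positive and 8.34% negative). RPL26B fell by 1.24 in dcp5-1, against 2.16 in Col-0, a difference of 0.92 ± 0.12 (adjusted p = 1.6e-05). RPL11C (0.75 ± 0.14, adjusted p = 4.2e-04), RPL13aA (0.73 ± 0.12, adjusted p = 1.9e-04), RPL10A (0.69 ± 0.11, adjusted p = 1.1e-04) and RPL28A (0.69 ± 0.12, adjusted p = 2.3e-04) followed. RPL19C went the other way: it fell by 0.79 in dcp5-1, against 0.43 in Col-0 (-0.36 ± 0.07, adjusted p = 0.0010). Its difference was -0.65 both when scaled to nuclear genes alone and with length and GC trends removed. RPL19C had 115, 121 and 120 FPKM in dcp5-1 at T15 and 204, 201 and 213 FPKM at T0, against 89.6, 89.1 and 92.3 FPKM in Col-0 at T15 and 131, 119 and 117 FPKM at T0.

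The count depended on the scale. Scaling to nuclear genes alone moved the median over all genes by -0.24; 15 differences were positive and 12 negative, and the members' median lay 0.26 above that of all genes, against 0.30 in the original scale. RPL26B was then at 0.63 and RPL11C at 0.45, both still past the threshold. With length and GC trends removed, 25 were positive and 2 negative, with a median of 0.16. Of the 5 root markers 3 had a positive difference, and of the 5 leaf markers 4, with medians of 0.69 and 0.48; their part was not tested.

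In polysomal RNA the responses of the genotypes differed for 1 gene by limma, RPL4A, at 0.35 ± 0.11 (adjusted p = 0.039), with 6.49% of genes tested positive and 4.45% negative. RPL4A had 275, 284 and 286 FPKM in dcp5-1 at T15 and 262, 268 and 262 FPKM at T0, against 173, 181 and 187 FPKM in Col-0 at T15 and 217, 224 and 207 FPKM at T0. Its call was lost without any 1 of 10 of the 12 libraries, the exceptions being replicate 3 of Col-0 polysomal RNA at T15 and at T0. Scaled to nuclear genes alone 1 difference was positive and 3 were negative. For association the difference was negative for 9 genes and positive for none, with a median of -0.25 (4.3% of genes tested negative and 1.95% positive). RPL26B (-0.75 ± 0.17, adjusted p = 0.013), RPL11C (-0.67), RPL10A (-0.62), RPL28A (-0.59) and RPL15A (AT4G16720, -0.49) were lowest. Of 24 fits that each left out 1 library, the calls of RPL11C and RPL28A were lost in 15 each and that of RPL15A in 11. Over these fits the members' median lay between -0.34 and -0.15. The negative count was 28 without replicate 1 of Col-0 total RNA at T0. It was 4 without replicate 3 of dcp5-1 total RNA at T15, and 5 without any 1 of 7 others: replicate 3 of Col-0 polysomal RNA at T0 or T15, replicate 2 or 3 of Col-0 total RNA at T15, replicate 1 of dcp5-1 polysomal RNA at T15, and replicate 2 of polysomal or 1 of total RNA of dcp5-1 at T0. Scaled to nuclear genes alone 7 were negative and 5 positive, as the median over all genes moved by 0.16, and with length and GC trends removed 3 were negative and 1 positive.

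Since copies of a family feed the same place in the ribosome, the share of each copy in its family's summed FPKM was followed as a description without a test. RPL26B made up 38.4% ± 0.24 of RPL26 in dcp5-1 total RNA at T15 and 46.5% ± 0.63 at T0, against 28.8% ± 1.2 in Col-0 at T15 and 46.2% ± 1.5 at T0 (SD, n = 3). In polysomal RNA its share was 25.0 and 27.4% in dcp5-1 at T15 and T0, against 24.7 and 28.5% in Col-0. The share of RPL26B thus differed more in total than in polysomal RNA. RPL18C made up 27.97 and 36.7% of RPL18 in dcp5-1 total RNA at T15 and T0, against 23.6 and 30.8% in Col-0, and in polysomal RNA 47.5 and 47.6% in dcp5-1, against 43.7 and 42.5% in Col-0. RPL3B was a small part of RPL3 everywhere, at 8.77 and 10.5% in dcp5-1 total RNA at T15 and T0, against 5.55 and 4.50% in Col-0. The coding sequences of RPL3A and RPL3B are 80.8% identical and those of RPL26A and RPL26B 80.2%, and none of these 4 shared a 50-base stretch with another gene. Over the 60 genes the share of a copy ranged by 9.04 percentage points across the 8 groups at the median; 25 genes ranged by over 10 points and 17 by under 5.

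**Figure D5:**
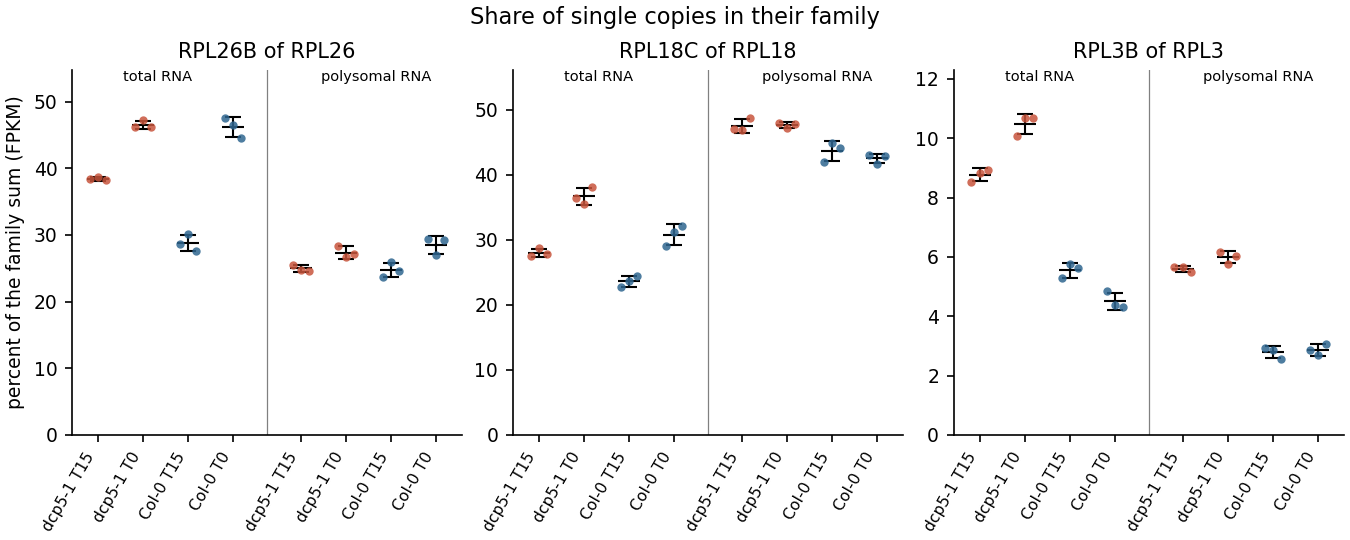
Percent of the family's summed FPKM held by RPL26B, RPL18C and RPL3B in each library (points), with the mean and SD of 3 replicates (bars), in the 8 groups. The share of RPL26B is lower at T15 than at T0 in total RNA of both genotypes and between 24.7 and 28.5% on average in polysomal RNA, and that of RPL3B is higher in dcp5-1.

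Other genes of the ribosome also fell in Col-0 total RNA after NaCl, where 33.2% of genes tested rose and 32.4% fell. All 42 tested of 46 further 60S genes (RPL21 to RPL38, families not among the 60) fell, with a median of -1.42. Of 41 genes of the small (40S) subunit (RPSa to RPS15) 40 fell and none rose, with a median of -0.88. In dcp5-1 total RNA, where 29.0% of genes tested rose and 26.8% fell, 42 of 42 and 37 of 41 fell, with medians of -0.87 and -0.58. Of 30 factors that assemble ribosomes in the nucleolus, 12 rose and 6 fell in Col-0 total RNA, with a median of 0.05. Among those that fell were FIB2, a fibrillarin of the nucleolus (-0.90), and AT1G25260 (-0.87), and among those that rose NUC-L1, a nucleolin (0.38), and FZF (0.42). Of the 8 tested of 9 genes for TOR signalling and LARP1, 2 rose, TOR itself (0.33) and RAPTOR1 (0.32), and 3 fell, among them LST8-1 (-0.51).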

How the data were processed

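The deposited table holds FPKM values of 38088 genes over 24 columns; 1 further line had no values and was dropped. That the authors' values are FPKM was inferred from the values: low ones fall on steps of 1 fragment per gene length, and in each library 99.0 to 99.7% of them came within 0.1 of whole fragments, from which depth was implied. Alignment used Bowtie and TAIR10, per the submitters' processing notes, without a version. How fragments were assigned to genes, and any scaling, is not given in the sources used here. Columns were read as W for Col-0, d for dcp5-1, 0 and 15 for minutes and IP for polysomal RNA. No label ties the column numbers to the replicate numbers of the titles, and replicates 1 to 3 here follow the column numbers.

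A count test had been planned in case the table held raw counts. For the FPKM values found, limma-trend with robust empirical Bayes was fitted to log2(FPKM + 1) of 20964 genes (at least 1 FPKM in at least 3 libraries) with 8 groups in 1 fit and 16 residual degrees of freedom. Genes were called at a Benjamini-Hochberg adjusted p below 0.05 over all genes tested. Fold changes on this scale understate those of low genes, and each SE uses a spread pooled over the groups. The 19 comparisons were NaCl within genotype, dcp5-1 against Col-0 and the difference of both responses (each for total RNA, for polysomal RNA and for association), and polysomal against total RNA within each group. Named members were, per comparison, up to 5 highest and 5 lowest changes among called genes averaging at least 10 FPKM, plus those of highest and lowest level. Of other lists, named genes were at most 2 rising and 2 falling of smallest p, and markers are given as sums and counts. Members outside the rule are named for their role. Members, lists and tests were chosen with earlier results of these data known.

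Alternatives were median-of-ratios scaling, a smaller pseudocount (0.1), dropping the low-value filter, scaling to nuclear genes alone and removal of length and GC trends. Further ones were a fit of only the groups compared, the replicate number as a block, and each library left out in turn. An equalised length offset was added after the data had been seen. Scaling to nuclear genes alone, also given as organelle-encoded genes removed, dropped 296 organelle-encoded genes. It set libraries to an equal summed FPKM of nuclear genes of at least 300 nt. Shorter nuclear genes stayed in that fit. Symbols, positions, lengths and sequences came from the TAIR10.1 annotation (RefSeq). Only the limma fit was tested on simulated data, for some of the comparisons and with independent noise in each library. The other steps were not simulated. Tools were limma 3.58.1 in R 4.3.3, and Biopython 1.88, pandas 2.3.3, scipy 1.17.1, numpy 2.4.6 and matplotlib 3.10.9 in Python 3.11.15.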

Additional observations from a re-analysis of the deposited data

Results flagged for a closer look

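The NaCl responses of the genotypes differed by the test of the difference itself, dcp5-1 minus Col-0. In total RNA it was positive for 38 of the 60 genes and negative for 1, where 16.9% of genes tested were positive and 8.34% negative. With libraries scaled to nuclear genes alone it was positive for 15 members and negative for 12. The named values were 0.92 for RPL26B, 0.75 for RPL11C, 0.73 for RPL13aA, 0.69 for RPL10A, 0.69 for RPL28A and -0.36 for RPL19C on the log2 scale.

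In polysomal RNA 1 gene had a positive difference, RPL4A at 0.35, and its call was lost in 10 of 12 fits that each left out 1 library; 6.49% of genes tested were positive and 4.45% negative. In association 9 genes had a negative difference and none a positive one, where 4.3% of genes tested were negative and 1.95% positive. Among them were RPL26B at -0.75, RPL11C at -0.67, RPL10A at -0.62, RPL28A at -0.59 and RPL15A at -0.49. Of 24 fits that each left out 1 library, the calls of RPL11C and RPL28A were lost in 15 each and that of RPL15A in 11.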

How the results depend on the processing

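Of 125 named values, 972 results under alternatives other than left-out libraries kept direction and call, 27 lost the call and 1 reversed: RPL3A in dcp5-1 against Col-0, T0 total RNA, was -0.21, and 0.011 with organelle-encoded genes removed. With a library left out, 924 kept direction and call and 108, from 18 named values, lost the call. The number of members called moved by over 1.5 times in these comparisons. For dcp5-1 against Col-0 at T0 it was 26 in total RNA, 49 with organelle-encoded genes removed and 15 with only the groups compared; 26 in polysomal RNA, and 54 with organelle-encoded genes removed; and 4 in association, 8 with organelle-encoded genes removed, 8 with length and GC trends removed, 0 with only the groups compared, and 2 to 16 with a library left out. At T15 it was 17 in association, 9 with length and GC trends removed, 26 with only the groups compared, and 8 to 21 with a library left out. For the difference of NaCl responses it was 9 in association, 4 with length and GC trends removed, and 4 to 29 with a library left out. In polysomal RNA that difference was called for 1 gene, for 0 without a filter on low values, 4 with organelle-encoded genes removed, 3 with only the groups compared, and 0 to 1 with a library left out. The cause of these shifts was not tested, except that left-out fits hold fewer libraries. Same-numbered libraries of different groups deviated together with correlations of -0.44 to 0.37, over 0.1 in 25 of 84 pairs. For libraries of other numbers the range was -0.54 to 0.50, over 0.1 in 57 of 168 pairs. A pairing by number was thus not visible, but samples may still be paired, since paired libraries need not deviate together. With the replicate number as a block no count of members moved by over 1.5 times, and of the 125 named values RPL9C in polysomal against total RNA of Col-0 at T0 (0.71) lost its call. With 3 libraries per group, small differences between fractions or genotypes lie near the limit of what these data resolve.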
